A study of Oryza sativa Japonica Group with 4 samples.

Results

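DREB1A, DREB1G and DREB1E are rice genes for transcription factors of the DREB1 family, also called CBF factors. They were compared in roots of nitrogen-starved seedlings with and without a short supply of glutamine. Genes were taken by the symbols and synonyms given for the probe sets of the GeneChip Rice Genome Array. On this single-colour array each probe set yields 1 intensity per sample. Each of the 3 genes had 1 probe set, so they make up 3 of the 17905 genes with a matched probe set. They were chosen because DREB1A was higher and the other two were lower with glutamine on these same 4 arrays, and their own differences are therefore given as a description without a test.

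The seedlings were japonica rice of cultivar TNG67, germinated for 3 days in the dark and grown hydroponically for 2 weeks without a nitrogen source. At an age of 17 days they were transferred for 30 min to solution that again lacked nitrogen (root -N, 2 arrays) or given glutamine at 2.5 mM, which roots can absorb and use as nitrogen (root +gln, 2 arrays). All plants had thus been starved of nitrogen and moved once, and the labels do not say how many plants made up a sample. The arrays of each group are described as biological repeats and are numbered 1 and 2.

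DREB1 factors carry an AP2 DNA-binding domain and activate genes whose promoters hold the dehydration-responsive element, also called the C-repeat. They are best known from the cold response, in which their transcripts accumulate within a short time and the dehydrins and other protective proteins they control follow later. Rice DREB1A was described as a cold-induced activator. DREB1G belongs to the same group of factors and was linked to drought tolerance in transgenic rice, and DREB1E is a further family member.

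The arrays resembled each other more by number than by treatment. Log2 intensities correlated across 57258 probe sets at r = 0.995 between the arrays numbered 1 and 0.990 between those numbered 2, against 0.975 between the root -N arrays and 0.983 between the root +gln arrays. Probe sets are not independent, so these correlations only describe the arrays. The median intensity was 19.7 to 22.2 on the 4 arrays. The 3′ to 5′ ratio of a Gapdh control, a measure of RNA quality, was 6.94 and 6.20 on the arrays numbered 1 and 4.32 and 4.43 on those numbered 2, while a second Gapdh pair gave 0.82 to 0.99. Of 11 root markers, 10 lay above the array's median on all 4 arrays, as did 3 of 4 green shoot markers and 2 of 10 seed storage markers. Having only 2 arrays in a group limits the precision of every value.

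DREB1A transcripts were higher with glutamine in each repeat. Its intensity was 81.7 and 107.8 on the root -N arrays and 307.6 and 498.0 on the root +gln arrays, for replicates 1 and 2 in that order. The lower root +gln array thus lay well above the higher root -N array, and the groups did not overlap. Mean log2 intensity was 6.55 ± 0.28 (SD, n = 2) in root -N and 8.61 ± 0.49 (SD, n = 2) in root +gln, a 4.17-fold difference (log2 difference 2.06, SE 0.32). Arrays with the same number differed 3.77-fold for number 1 and 4.62-fold for number 2, so the size of the difference was alike in both. In bulk roots, a change in the number of cells that express a gene and a change in RNA per cell cannot be told apart.

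DREB1G went the other way, with unequal size in the repeats. Its intensity was 192.3 and 338.6 on the root -N arrays and 139.3 and 108.3 on the root +gln arrays. The groups did not overlap, but root -N replicate 2 stood apart above the other arrays. Mean log2 intensity was 7.995 ± 0.58 (SD, n = 2) and 6.94 ± 0.26 (SD, n = 2), which made the gene 2.08-fold lower with glutamine (log2 difference -1.05, SE 0.34). Within number 1 the level was 1.38-fold lower and within number 2 it was 3.13-fold lower.

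DREB1E had the same order of arrays as DREB1G at a smaller difference. Its intensity was 54.5 and 98.2 on the root -N arrays and 50.5 and 34.8 on the root +gln arrays. Replicate 1 of root -N and replicate 1 of root +gln were close together, and again root -N replicate 2 was the highest. Mean log2 intensity was 6.19 ± 0.60 (SD, n = 2) and 5.39 ± 0.38 (SD, n = 2), a 1.75-fold lower level with glutamine (log2 difference -0.80, SE 0.37). The ratio was 1.08-fold lower within number 1 and 2.82-fold lower within number 2, so nearly all of the difference came from the arrays numbered 2. With 1 array per group and number, the difference between the numbers could not be tested.

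**Figure D1:**
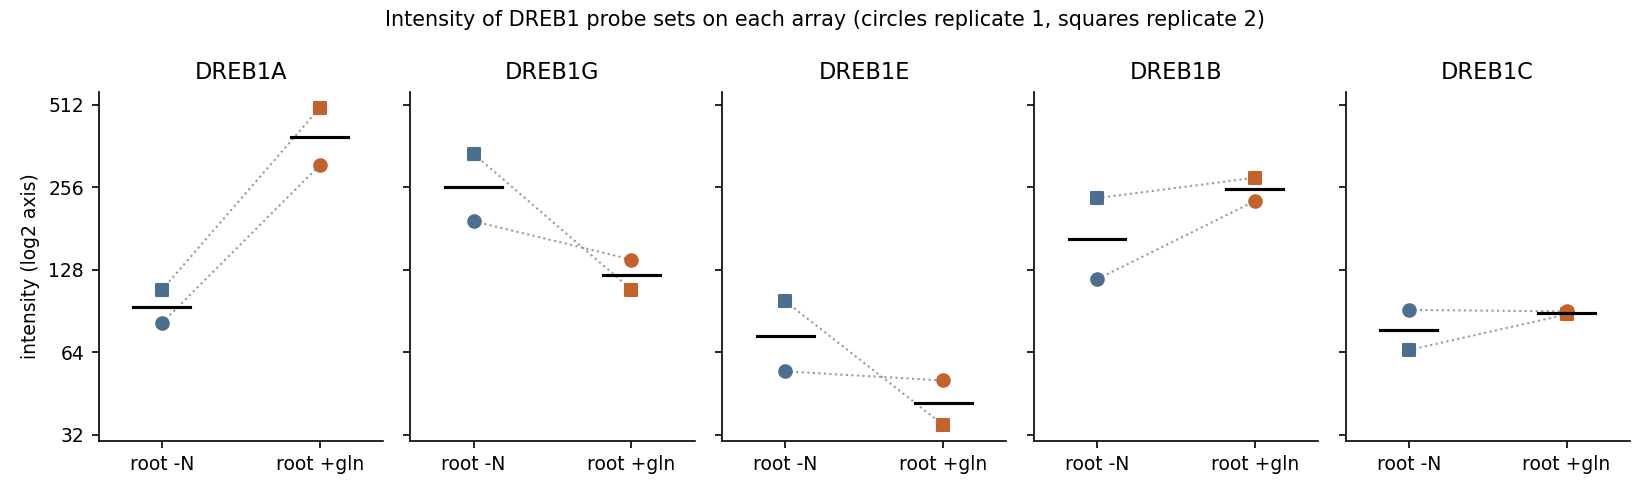
Intensity (log2 axis) of the DREB1 probe sets on each array, with root -N in blue and root +gln in orange, circles for replicate 1 and squares for replicate 2. Black bars are the means of the log2 values (n = 2), dotted lines join arrays of the same number, and levels are not comparable between genes. DREB1A runs from 81.7 to 498.0 with both root +gln arrays on top, whereas DREB1G and DREB1E have their highest point on root -N replicate 2, at 338.6 and 98.2.

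Against all probe sets, these differences lay near the ends of the distribution. By log2 difference, DREB1A ranked 7 from the top of 57258 probe sets, DREB1G ranked 34 from the bottom and DREB1E 92 from the bottom. Non-overlapping arrays in themselves were common, with 8.36% of probe sets higher and 8.22% lower in root +gln. A difference of at least 2-fold without overlap was found for 0.393% of probe sets in the upward and 0.0332% in the downward direction. DREB1A and DREB1G met that criterion, with DREB1G just inside it at -1.05, and DREB1E at -0.80 was just outside. The genes were picked from this contrast, so nothing is read from their place in it. Fitted over the whole array, limma's test with Benjamini-Hochberg adjustment called 0.0% in either direction. Of the 57258 probe sets, 505 had an unadjusted limma p under 0.05. That is a smaller share than the 0.05 such a cut-off passes where no probe set differs. With the replicate number as a block in the fit, the count was 2480. The share thus depends on the model, and its small size does not show that no probe set differs.

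The repeats of the group without nitrogen differed more for the 2 genes that were lower than for DREB1A. Root -N replicate 2 exceeded replicate 1 by 0.82 for DREB1G and by 0.85 for DREB1E on the log2 scale, and by 0.40 for DREB1A. Gaps at least as wide between the root -N arrays were found for 11.3%, 10.2% and 39.3% of all probe sets, respectively. In the root +gln group the sign of the gap also set the genes apart, with replicate 2 above replicate 1 by 0.70 for DREB1A but below it for DREB1G (-0.36) and DREB1E (-0.54). For DREB1E the gap of 0.85 between untreated repeats was thus as wide as the difference between the groups.

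Single arrays decided how far DREB1G and DREB1E lay from 0. Their sign could not change when 1 array was left out, because the groups did not overlap. Without root -N replicate 2 the log2 difference was -0.65 for DREB1G and -0.38 for DREB1E. Without root -N replicate 1 it was -1.46 and -1.23, and without root +gln replicate 2 it was -0.87 and -0.54. DREB1A stayed between 1.71 and 2.41 when any 1 array was left out. Green shoot markers were also highest on root -N replicate 2. The summed intensity of the 4 green shoot markers was 9306.8 and 12721.4 in root -N and 11342.4 and 11637.0 in root +gln. Of these 4 markers, 3 had their highest value on root -N replicate 2. Most of the sum came from CAB2R alone. Without it the sum was 701.3 and 2175.6 in root -N and 1308.7 and 1641.6 in root +gln, so the root -N repeats lay further apart. Root markers were mixed, with 4 of 11 highest on root -N replicate 2 and 5 of 11 on root +gln replicate 2. Their sum was 13041.0 and 22845.1 in root -N and 15054.8 and 20093.1 in root +gln, and without the aquaporin gene TIP2-1 it was 10076.8 and 13826.3 against 10940.4 and 14784.8. The array with the highest root marker sum thus changed with that 1 gene. The 10 seed storage markers summed to between 346.7 and 410.0 on the 4 arrays, with the highest value on root +gln replicate 2. None of these markers was listed at 0, and their part in the results was not tested.

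**Figure D2:**
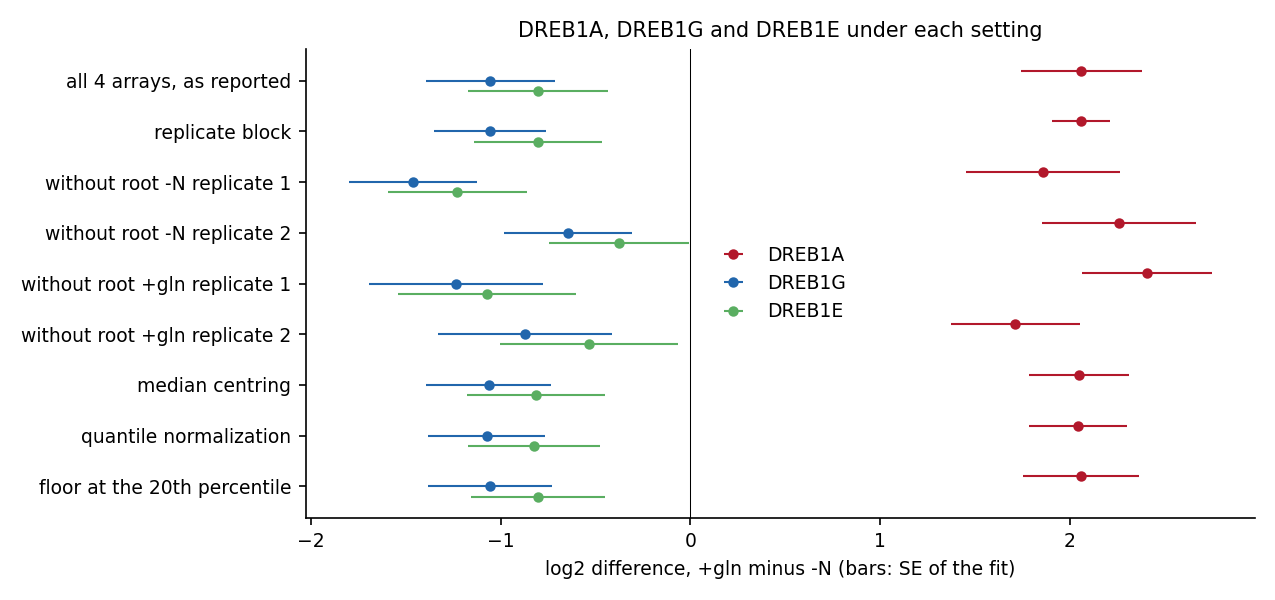
Log2 difference between root +gln and root -N for the 3 genes (colours) with all arrays and under each other setting, with bars for the SE of the fit. DREB1A lies between 1.71 and 2.41 under every setting shown, while DREB1E lies between -1.23 and -0.38.

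The contrast between the genes held within each number. The log2 difference of DREB1A exceeded that of DREB1G by 2.38 on the arrays numbered 1 and by 3.85 on those numbered 2. It exceeded that of DREB1E by 2.02 and 3.70. On the arrays numbered 1 DREB1E itself differed by only -0.11, so nearly all of the gap there came from DREB1A at 1.91. DREB1G and DREB1E were close to each other, at -0.35 and -0.15 for DREB1G minus DREB1E. The opposite directions of DREB1A and the other 2 genes are what they were chosen for, and these values describe them.

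**Figure D3:**
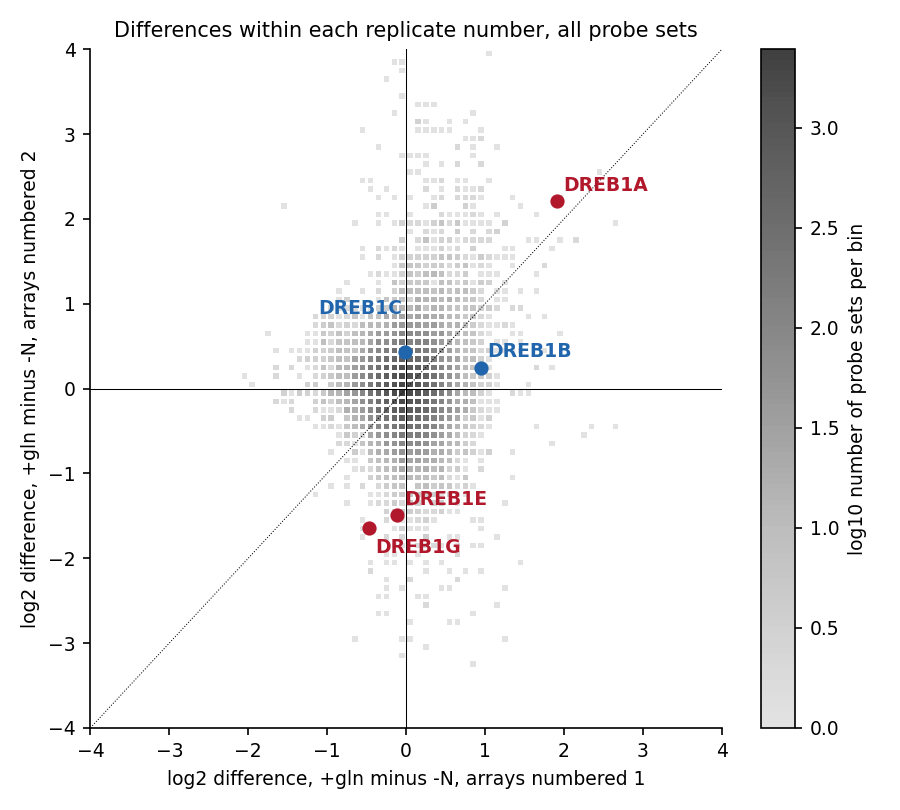
Log2 difference between root +gln and root -N on the arrays numbered 1 (x axis) and numbered 2 (y axis) for the 57252 probe sets within the axes, in bins shaded by their number, with the 3 genes in red and the other matched DREB1 genes in blue. DREB1A lies near the dotted line of equal differences, at 1.91 and 2.21, while DREB1G and DREB1E lie at -1.64 and -1.497 on the y axis and nearer to 0 on the x axis.

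The gene table of assembly ASM3414082v1 names 9 DREB1 genes, of which 5 had a matched probe set, and DREB1F, DREB1H, DREB1I and DREB1J are not analysed here. DREB1A lies in a row of neighbouring family members in that table, in the order DREB1B, DREB1H, DREB1A, whereas DREB1G and DREB1E have no DREB1 gene next to them. DREB1B, another cold-induced member, had intensities of 118.1 and 233.4 in root -N and 227.7 and 276.9 in root +gln. Replicate 1 of root +gln lay just under replicate 2 of root -N, so the groups overlapped. The log2 difference of DREB1B was 0.60 (SE 0.37), at 0.95 for the arrays numbered 1 and 0.25 for those numbered 2. DREB1B did not pass limma's test (adjusted p = 1). No probe set of the array passed it, so this outcome does not set DREB1B apart. After centring each array on its median or after quantile normalization, both root +gln arrays lay above both root -N arrays for DREB1B.

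DREB1C, a family member also named CBF1, had 3 probe sets. The brightest had intensities of 91.3 and 65.2 in root -N and 90.2 and 87.9 in root +gln, and its log2 difference was 0.21 (SE 0.25). The other 2 probe sets were dim, at 5.3 to 7.1 on all arrays, with log2 differences of -0.16 and -0.06. None of the 3 passed limma's test (adjusted p = 1 for each), which no probe set of the array passed. Each difference was smaller than its SE. Of the 2 other matched DREB1 genes, 0 thus had non-overlapping groups. Whether probes for 1 DREB1 gene also bind transcripts of another was not tested.

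Named genes with the most similar pattern were sought by distance, the square root of the summed squared differences between log2 values over the 4 arrays after each gene was centred on its own mean. The nearest to DREB1A among 2457 named genes was NAC5, a stress-responsive NAC transcription factor, at a distance of 0.53. NAC5 had intensities of 951.4 and 1133.1 in root -N and 3353.3 and 3616.7 in root +gln. RR6, a response regulator of cytokinin signalling, PIN5 of the auxin efflux carrier family, Agglutinin and the protein kinase gene CIPK14 followed at 1.04 to 1.05. These genes were higher with glutamine in both numbers, as DREB1A was, with log2 differences between 1.02 and 1.75.

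DREB1G and DREB1E were among the named genes nearest to each other. DREB1E was the second nearest gene to DREB1G, at 0.28, and DREB1G the third nearest to DREB1E. Nearest to DREB1G was Hox28, a homeobox gene, at 0.05. Hox28 had intensities of 90.7 and 157.2 in root -N and 67.2 and 50.3 in root +gln, with the peak on root -N replicate 2 and the lowest value on root +gln replicate 2 as in DREB1G. Nearest to DREB1E was HOX2, another homeobox gene, at 0.25, with 226.2 and 381.4 in root -N and 226.2 and 123.1 in root +gln. Its arrays numbered 1 were equal and the whole difference lay in those numbered 2. The homeobox gene Hox22 and XBOS36 were among the 5 nearest of both, and HSFC2A, a heat stress transcription factor, was among those of DREB1G (distance 0.37). By this measure DREB1A lay at 3.22 from DREB1G and 3.01 from DREB1E, which put them at places 2455 and 2449 of the 2457 named genes ordered by distance from DREB1A. Likeness over 4 arrays includes the difference between the groups and the gap between the numbers, and it is given as a description. The 3 genes were chosen for their differences between the groups, so their distances from each other follow in part from that choice.

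**Figure D4:**
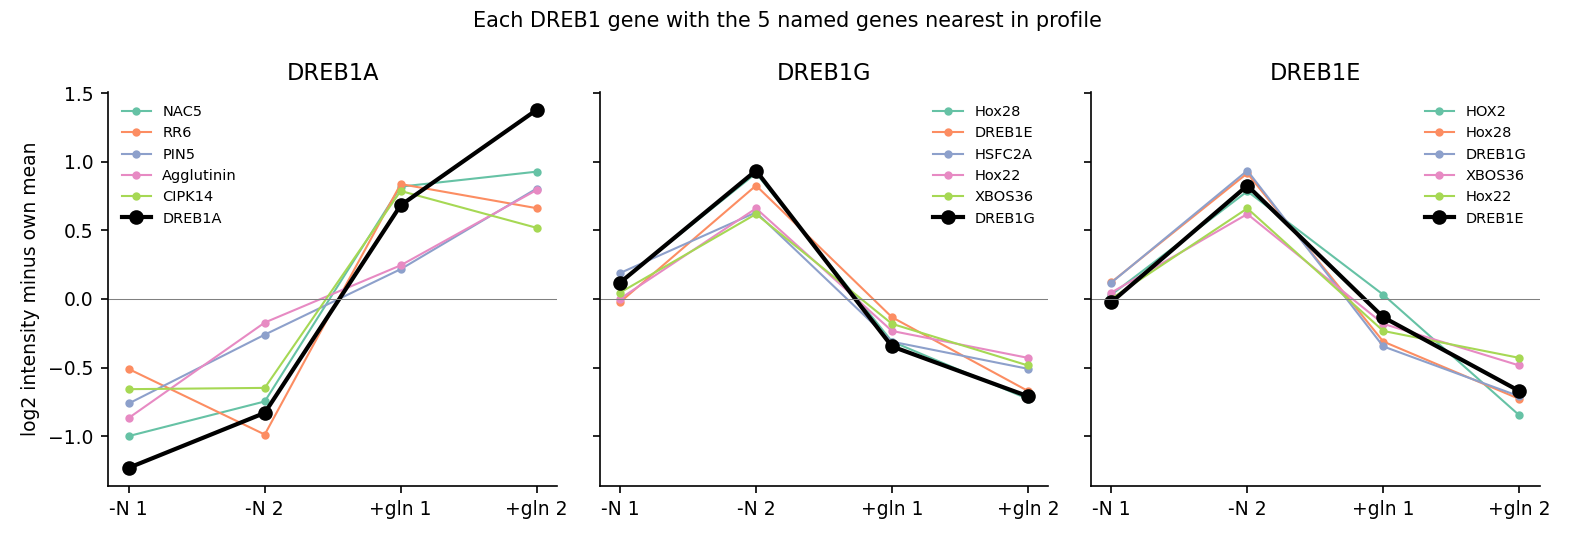
Log2 intensity minus the gene's own mean on the 4 arrays for each of the 3 genes (black) and the 5 named genes nearest to it (colours). The genes around DREB1A are low on both root -N arrays and high on both root +gln arrays, whereas those around DREB1G and DREB1E peak on root -N replicate 2.

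Genes that act around the DREB1 factors were described by lists, with 1 probe set per gene. Over all 17905 genes, 10.1% were higher and 9.03% lower without overlap, and the median log2 difference was -0.01. Limma called 0 genes of any list, and no probe set of the whole array. Among 5 other AP2/ERF genes, which include the DREB2 factors of drought and heat responses, 1 was higher and 1 lower without overlap, at a median of 0.06. DREB2D differed by 0.36 (SE 0.21) at intensities of only 3.8 to 5.4, and EREBP-1 by 0.09. ERF78, the panicle branching gene FZP, differed by -0.21 at 6.3 to 7.9, and its groups overlapped after quantile normalization. DREB2A, a further family member, differed by -0.07 (SE 0.28). The log2 differences of these 5 genes thus ran from -0.21 to 0.36.

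Of 13 upstream regulators of cold and light signalling, 2 were higher and 2 lower without overlap, at a median log2 difference of -0.02. MYB4, a MYB factor that raised cold tolerance when expressed in Arabidopsis, had intensities of 1416.0 and 1071.5 in root -N and 1966.1 and 2404.4 in root +gln. Its groups did not overlap, and the log2 difference was 0.82 (SE 0.25). It measured 0.47 within number 1 and 1.17 within number 2. MPK5, a mitogen-activated protein kinase also named MPK3, differed by 0.66 (SE 0.25). A second gene matched by the name MPK3 differed by -0.02 (SE 0.21), and its groups overlapped. On the other side stood PHYA, a red and far-red light receptor, at -0.37 (SE 0.35) and PRR95, a component of the circadian clock, at -0.24 (SE 0.24). The 2 genes lower without overlap were PRR1, also of the clock, and MYBS3, a repressor of DREB1 genes in the cold, at -0.17 and -0.24, and median centring or quantile normalization raised that count to 4.

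The 11 dehydrin, LEA and cold target genes included 1 higher and 0 lower without overlap, and their median log2 difference was 0.13. The exception was TPP1, a trehalose-6-phosphate phosphatase gene, with 222.8 and 373.3 in root -N and 422.7 and 459.7 in root +gln. Its log2 difference was 0.61 (SE 0.31), and the arrays numbered 1 and 2 gave 0.92 and 0.30. The dehydrin gene rab25 followed at 0.46 (SE 0.39), with overlapping groups at intensities of 5.0 to 11.6. At the lower end were salT, a salt-induced lectin gene, at -0.13 (SE 0.22) and the dehydrin gene RAB16D at -0.08 (SE 0.22). The dehydrin gene Dhn1, also named LIP9, stood at 0.13 (SE 0.26). Every gene of the list but TPP1 and rab25 differed by less than its SE.

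Of 5 stress transcription factor genes outside the AP2/ERF family, 1 was higher and 0 were lower without overlap, at a median of -0.09. The gene that was higher was NAC5, with a log2 difference of 1.75 (SE 0.22). NAC6 and NAC010 had the lowest values, at -0.10 and -0.09, and NAC2 and BZIP23 differed by -0.09 and -0.05. After median centring both NAC6 and NAC2 were lower with glutamine without overlap, and after quantile normalization only NAC2 was.

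**Figure D5:**
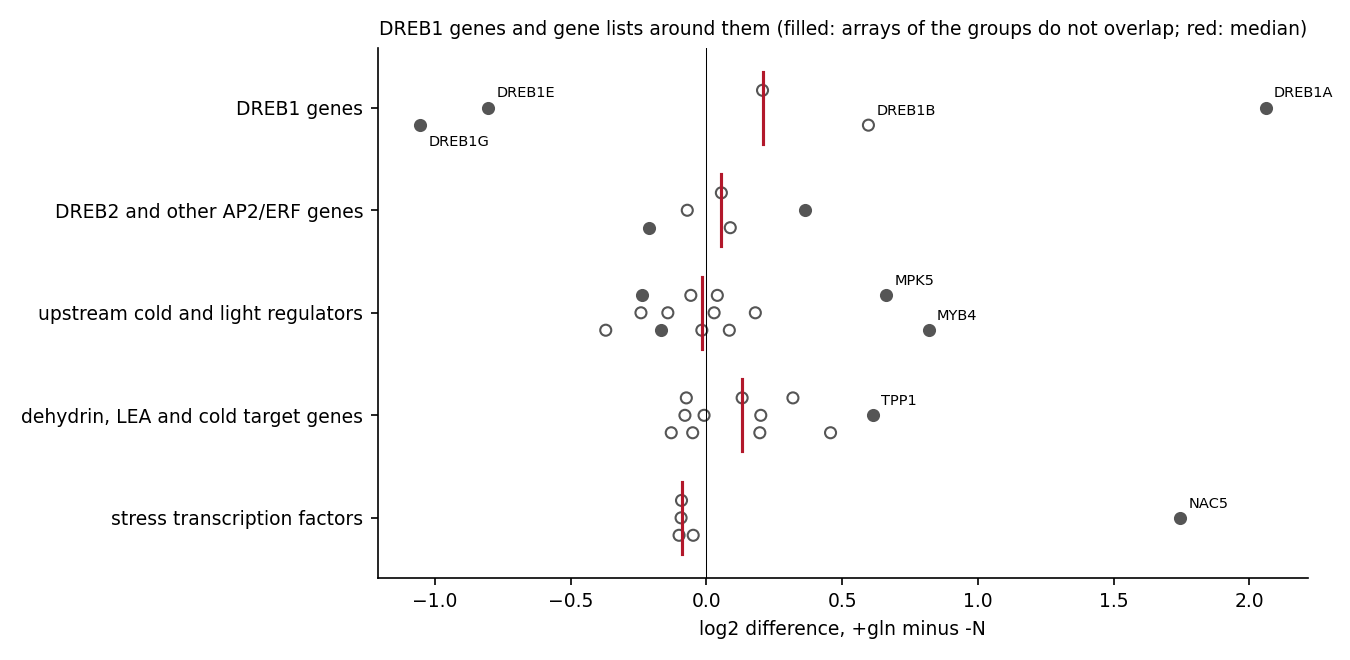
Log2 difference between root +gln and root -N (x axis) for each matched gene of the DREB1 family and of 4 lists around it, with filled points where the arrays of the groups do not overlap and red lines at list medians. DREB1A at 2.06 and NAC5 at 1.75 lie far to the right of the other genes, and DREB1G at -1.05 and DREB1E at -0.80 to the left.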

How the data were processed

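Biotinylated cRNA made from phenol-extracted total RNA was hybridised, per the labels' protocols, to the GeneChip Rice Genome Array. The authors deposited 1 linear intensity per probe set and array, from 2.9 to 21202.3. The submitters' processing notes name GCOS and RMA. The summarisation and scaling steps are not given in the sources used here. No detection calls were used. The 123 control probe sets were left out, log2 was taken without further scaling, and 57258 probe sets were fitted in limma 3.58.1 (R 4.3.3) by group alone, with Benjamini-Hochberg adjustment over all of them. Probe sets with 1 annotated gene (22436) were matched by gene number to the RefSeq gene table of assembly ASM3414082v1. Genes with several probe sets are represented in lists by the brightest. Named genes were every DREB1 gene, the 2 highest and 2 lowest differences per list, and the 5 nearest profiles. Genes outside that rule (the list genes given for their overlap, Dhn1 and NAC2) were named after their values were seen. TIP2-1 and CAB2R were named only for the marker sums. Members and lists were chosen with earlier results of these data known, including reports of DREB1A and NAC5. Promoter and protein comparisons are not analysed here. The script was tested on simulated data. Its pass condition used a smaller spread than that of the 3 genes, so it does not show which differences limma could call here. Figures were drawn with matplotlib 3.10.9.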

Additional observations from a re-analysis of the deposited data

How the results depend on the processing

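The 3 genes kept their direction under each of 8 alternatives, and no value moved by more than the pooled SD between repeats. For most alternatives this was fixed in advance. Leaving out 1 array cannot reverse groups that do not overlap, nor move a value by more than that SD. A block for the replicate number leaves the differences as they are, and the floor at percentile 20 lay below these probe sets. Median centring and quantile normalization gave 2.05 and 2.04 for DREB1A, -1.06 and -1.07 for DREB1G, and -0.81 and -0.82 for DREB1E. Replicate numbers are shared by the groups, and the differences between numbers 1 and 2 correlated at r = 0.67 between the groups across probe sets. Nothing in the labels pairs the samples, so this is a hint from the data alone. With the replicate number as a block, the log2 differences stayed at 2.06, -1.05 and -0.80 and the SEs were 0.15 for DREB1A, 0.30 for DREB1G and 0.34 for DREB1E. Limma called 0 probe sets under all 10 alternatives tried, with 158 to 2480 at an unadjusted p under 0.05 and 2480 under the block. The count of other DREB1 genes without overlap, 0 in all arrays, was 1 after median centring, 1 after quantile normalization and 0 to 2 without any 1 array, where fewer arrays make overlap rarer. Of probe sets without overlap, 244 were apart by 2-fold or more, which became 832 with a minimum of 1.5 and 369 to 1187 without any 1 array. Each of the 3 genes has a single probe set, so separate probe sets gave no further value. Without detection calls, the distance of DREB1E from background is unknown, and it lay between the percentiles 57.8 and 72.1 of the arrays.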
